A study of Mus musculus with 4 samples.

Results

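The genes described here carry glucose from its uptake through glycolysis to the fate of pyruvate. A list of 38 genes was fixed by name: glucose carriers, the enzymes of glycolysis, lactate formation and export, the gate by which pyruvate enters mitochondria, and the pentose phosphate branch. Of these 38, 33 had at least 1 of the 74 probe sets that the platform annotation gives to a single listed gene, out of 18194 genes named in that way. Each gene was read from its main probe set, the one of highest mean log2 signal. No probe set carried the symbol of Gpi1, Pfkfb1, Eno1, Mpc2 or G6pdx alone, and these 5 genes were not analysed here. Eno2 and Pdk4 lay below the filter on low values, which left 31 of the 12680 genes tested.

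Glycolysis splits glucose into pyruvate in the cytosol, and isoenzymes encoded by separate genes catalyse most of its steps. Pyruvate is then reduced to lactate by lactate dehydrogenase and exported, or is carried into mitochondria and oxidised by the pyruvate dehydrogenase complex, which pyruvate dehydrogenase kinases switch off. The pentose phosphate branch supplies NADPH and ribose. Long-term haematopoietic stem cells are known to rely on glycolysis and to hold pyruvate back from mitochondria through these kinases.

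Signals were measured on 4 Affymetrix arrays of LSK cells, which lack lineage markers, carry Sca-1 and c-Kit, and hold haematopoietic stem cells and early progenitors. The cells came from C57BL/6 mice whose marrow had been rebuilt with fetal liver cells, necdin null in 1 group and wild type in the other, with 2 arrays in each. Both groups had received a sublethal dose of 6.5 Gy, so no array shows unirradiated cells. The time from irradiation to collection, the part of the gene that was deleted, the presence of host LSK cells and the number of animals behind each array are not stated in the sources used here. The spread between replicates may therefore be technical. The p-values and intervals rest on this spread, drawn by limma toward that of genes of like brightness, and not on each gene's own replicates alone. Ndn, the targeted gene that encodes the growth suppressor necdin, gave 2.73 and 12.1 in necdin null and 559 and 392 in wild type cells with 1 probe set, and 55.4 and 105 in necdin null and 253 and 255 in wild type cells with its main one, where all 5 of its probe sets above the filter were lower. All 9 measured genes of the LSK gate and of early progenitors passed the filter: Cd34 gave 13478 and 15252 in necdin null and 14722 and 13407 in wild type cells, Kit gave 6049 and 3744 in necdin null and 6617 and 3976 in wild type cells, and the dimmest, Slamf1, gave 338 and 233 in necdin null and 397 and 74.4 in wild type cells. Ly6a, which encodes Sca-1, was not analysed here. Of 6 measured T and NK genes, Cd3e, Cd3g, Cd3d and Cd4 lay below the filter, while Cd8a passed it and Nkg7 gave 3537 and 4045 in necdin null and 3755 and 3047 in wild type cells. Of 7 endothelial and stromal genes, Cdh5, Col1a1 and Lepr lay below it and Pecam1, Kdr, Col1a2 and Cxcl12 passed, with a summed signal over the list of 365 and 359.9 in necdin null and 277 and 388 in wild type cells; Col1a2 was lower and Cxcl12 higher in necdin null cells with the groups apart. Other blood cell lists also gave signal. The 6 monocyte and macrophage genes summed to 9273 and 16755 in necdin null and 7549 and 14949 in wild type cells. The 5 megakaryocyte genes summed to 5801 and 6507 in necdin null and 8523 and 5576 in wild type cells. For 5 mast cell and basophil genes the sums were 5537 and 4457 in necdin null and 6074 and 4896 in wild type cells. B lineage sums over 7 genes were 1219 and 1455 in necdin null and 1192 and 2299 in wild type cells. Fewer cells of a type and less RNA per cell cannot be told apart in such bulk samples.

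No gene of the pathway passed the test between necdin null and wild type cells. With limma, 0 of 31 members had an adjusted p under 0.05, as had 0% of the 12680 genes, and 0 of 31 had an unadjusted p under 0.05, where 3.02% of all genes did. The lowest unadjusted p of a member was 0.14, for Taldo1. Differences are given as necdin null minus wild type on the scale of log2(signal + 3.80). The median over the 31 members was -0.018, against -0.031 over all genes tested, with 14 members higher and 17 lower. The groups did not overlap for 2 members that were higher (Pgk1 and Taldo1), where 12.8% of all genes lay so, and for 2 that were lower (Hk2 and Pfkfb4), where 17.7% did. With each array centred on its median, the groups were apart for 1 higher and 4 lower members, and for 7.42% and 23.2% of all genes. The 95% interval of the difference lay within a 2-fold change in either direction for 26 of 31 members, and for 53.6% of all genes. The 5 others were Pfkfb2, Pfkfb4, Aldoc, Slc16a3 and Pdk2, for which the arrays allow a 2-fold difference.

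**Figure D1:**
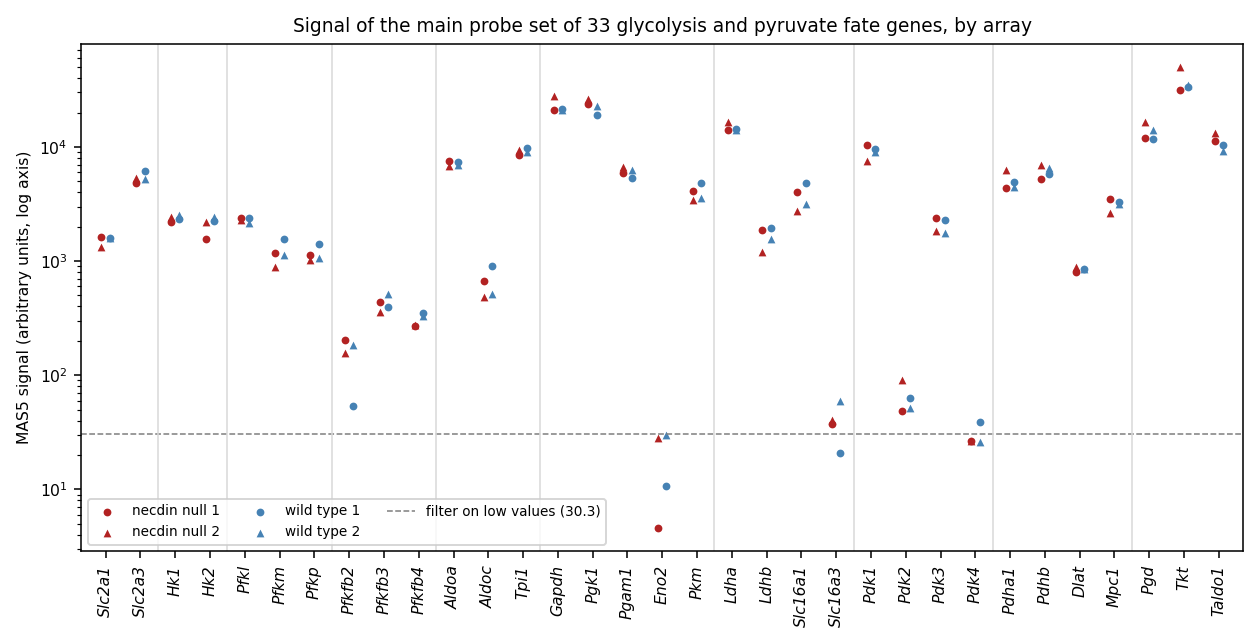
MAS5 signal (log axis) of the main probe set of each of 33 genes on each of 4 arrays, in the order of the pathway; grey lines part the roles and the dashed line marks the filter at a signal of 30.3. The 4 arrays lie close together for most genes, and Eno2, Slc16a3, Pdk2 and Pdk4 lie near or below the filter.

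Hypoxia-inducible factors, dimers with the product of Arnt, switch on many glycolytic genes and recognise a core of ACGTG or GCGTG. Only ACGTG was searched here. MYC recognises CACGTG, which contains ACGTG. Promoters of 4 members follow to show where these letters lie: the lactate dehydrogenase pair, whose isoenzymes have opposite roles, and Hk2 and Pgk1, which were apart between groups in opposite directions. They are RefSeq sequences of build GRCm38.p6, the 250 bases before the first listed transcription start, 5′ to 3′ on the strand of the gene, with each ACGTG on either strand in capitals. They are Ldha at chr7:46845554-46845803 (plus strand), Ldhb at chr6:142507958-142508207 (minus strand), Hk2 at chr6:82774455-82774704 (minus strand) and Pgk1 at chrX:106186850-106187099 (plus strand).
Ldha: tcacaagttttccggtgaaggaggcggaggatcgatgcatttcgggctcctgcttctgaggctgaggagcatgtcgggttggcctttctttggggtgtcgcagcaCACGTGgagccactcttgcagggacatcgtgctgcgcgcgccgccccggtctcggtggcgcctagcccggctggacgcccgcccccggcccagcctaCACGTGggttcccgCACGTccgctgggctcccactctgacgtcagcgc
Ldhb: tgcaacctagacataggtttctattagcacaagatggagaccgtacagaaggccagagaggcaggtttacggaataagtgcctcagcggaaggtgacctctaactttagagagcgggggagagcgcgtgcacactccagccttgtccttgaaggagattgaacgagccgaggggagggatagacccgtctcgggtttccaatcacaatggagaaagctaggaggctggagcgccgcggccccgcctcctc
Hk2: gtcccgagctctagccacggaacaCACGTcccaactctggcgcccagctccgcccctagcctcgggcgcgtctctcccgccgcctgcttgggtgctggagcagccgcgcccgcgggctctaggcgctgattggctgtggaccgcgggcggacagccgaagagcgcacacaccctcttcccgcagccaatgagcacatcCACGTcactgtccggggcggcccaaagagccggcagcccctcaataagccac
Pgk1: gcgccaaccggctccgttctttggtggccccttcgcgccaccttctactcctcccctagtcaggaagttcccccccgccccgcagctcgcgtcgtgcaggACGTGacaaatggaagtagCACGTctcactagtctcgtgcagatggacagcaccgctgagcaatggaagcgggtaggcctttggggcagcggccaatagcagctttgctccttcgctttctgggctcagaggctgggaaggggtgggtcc
Ldha held 3 separate matches, of which those starting 145 and 48 bases before the start were CACGTG. Hk2 held 2 matches, 226 and 52 bases before the start, and Pgk1 held 2, 150 and 131 bases before it. Ldhb held no ACGTG in this window, and GCGTG was not searched. A second listed Ldha window also held none. Windows were listed for 37 of the 38 genes, and 19 of their 58 windows (32.8%) held ACGTG, against 16.6% of all 32851 windows. The core contains a CG, and CG pairs were more frequent in these windows too, with a median of 14 against 6. A match is a run of letters and was not tested as a binding site.

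Both listed glucose carriers had bright signals. Slc2a3, which encodes the high-affinity carrier GLUT3, gave 4853 and 5353 in necdin null and 6098 and 5237 in wild type cells. Its difference was -0.15 (standard error 0.19, 95% interval -0.58 to 0.28), and the groups overlapped. Slc2a1, which encodes the ubiquitous carrier GLUT1, gave 1630.3 and 1328 in necdin null and 1599 and 1580.3 in wild type cells, with 1 necdin null array below the others and a difference of -0.11. All 3 probe sets of Slc2a1 and both Slc2a3 probe sets above the filter had lower means in necdin null cells. On the dimmest Slc2a1 probe set, at 311 and 280 in necdin null and 416 and 375 in wild type cells, the groups did not overlap. The same held for the other Slc2a3 probe set, at 2414 and 2111 in necdin null and 2559 and 3069 in wild type cells.

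Hexokinases trap glucose in the cell by phosphorylation. Hk1, the broadly expressed isoenzyme, gave 2204 and 2427 in necdin null and 2315 and 2519 in wild type cells and a difference of -0.062 (standard error 0.18, 95% interval -0.48 to 0.36). Hk2, the inducible isoenzyme of growing cells, gave 1557 and 2211 in necdin null and 2230.4 and 2409.9 in wild type cells. Both necdin null values of Hk2 were below both wild type values, but necdin null replicate 2 lay only just below wild type replicate 1. The difference was -0.32 (standard error 0.22, 95% interval -0.82 to 0.18), the limma adjusted p was 0.999, and without necdin null replicate 1 it was -0.068. A second, dimmer Hk1 probe set gave 99.8 and 109 in necdin null and 154 and 159 in wild type cells, so the groups were apart there and not on the main probe set. Hk3, a hexokinase of myeloid cells outside the list of 38, gave 3896 and 3439.8 in necdin null and 3584 and 3664 in wild type cells (0.015).

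Phosphofructokinase commits sugar to glycolysis, and its liver (Pfkl), muscle (Pfkm) and platelet (Pfkp) subunits were all measured. Pfkl gave 2384 and 2301 in necdin null and 2386 and 2155 in wild type cells, with a difference of 0.046 (standard error 0.18, 95% interval -0.37 to 0.46), and all 3 of its probe sets had higher means in necdin null cells. Pfkm gave 1183 and 894 in necdin null and 1561 and 1125 in wild type cells. Pfkp gave 1124 and 1019 in necdin null and 1398 and 1067 in wild type cells. For Pfkm and Pfkp wild type replicate 1 was the highest array and necdin null replicate 2 the lowest, and the groups overlapped, with differences of -0.36 and -0.19.

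The PFKFB enzymes set the level of the sugar bisphosphate that activates phosphofructokinase. Pfkfb3 lay at the 74.5 to 77.8 percentile of all probe sets and Pfkfb4 at the 70.8 to 73.9 percentile. Pfkfb3, the isoform of strongest kinase activity, gave 435 and 356 in necdin null and 396 and 512 in wild type cells and -0.19 (standard error 0.30, 95% interval -0.86 to 0.48). Pfkfb4 gave 269 and 273 in necdin null and 349 and 333 in wild type cells, with tight replicates and groups apart (271 ± 2.90 against 341 ± 11.1; SD, n = 2 each). Its difference was -0.33 (standard error 0.31, 95% interval -1.03 to 0.38), with a limma adjusted p of 0.999. Pfkfb2 gave 203 and 156 in necdin null and 53.6 and 185 in wild type cells. Wild type replicate 1 alone was low, and the difference of 0.80 became -0.056 without it.

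Aldolase and triosephosphate isomerase yield the triose that feeds the second stage of glycolysis. Aldoa, the main aldolase of most tissues, gave 7576 and 6817 in necdin null and 7359 and 6913 in wild type cells, a difference of 0.011. Aldoc, better known from brain, gave 669 and 480.5 in necdin null and 906 and 519 in wild type cells, and wild type replicate 1 was the highest array. Tpi1, the brightest gene of this step, gave 8561 and 9376 in necdin null and 9793 and 9055 in wild type cells and -0.072 (standard error 0.19, 95% interval -0.50 to 0.36). All 3 Tpi1 probe sets had slightly lower means, with differences between -0.090 and -0.072.

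The stage that makes ATP included some of the brightest signals on the arrays. Pgk1, phosphoglycerate kinase, gave 23629 and 26193 in necdin null and 19049.5 and 22786 in wild type cells, so both necdin null arrays lay above both wild type arrays. Its difference was 0.26 (standard error 0.22, 95% interval -0.25 to 0.77), with a limma adjusted p of 0.999. Another Pgk1 probe set went the other way, at 13208 and 24205 in necdin null and 19192 and 20041 in wild type cells, while the third gave 11771 and 13265 in necdin null and 11259.5 and 10683 in wild type cells. Pgam1, phosphoglycerate mutase, gave 5859 and 6609 in necdin null and 5363 and 6250.1 in wild type cells (0.10). Pkm, the pyruvate kinase of non-liver tissues, gave 4073 and 3422 in necdin null and 4834 and 3546 in wild type cells (-0.15), with wild type replicate 1 the highest. Eno2, the neuronal enolase, was at 4.55 and 28.1 in necdin null and 10.7 and 30.1 in wild type cells and below the filter.

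Gapdh, which oxidises the triose, was represented only by the array's 3 control probe sets for it, which sit at the 3′ end, the middle and the 5′ end of the transcript. The 3′ set was the main one and gave 20985 and 28045 in necdin null and 21619 and 21085 in wild type cells, with necdin null replicate 2 alone above the rest and a difference of 0.18 (standard error 0.24, 95% interval -0.35 to 0.72). The middle set gave 8741 and 8487 in necdin null and 9433 and 8014 in wild type cells (-0.014) and the 5′ set 1915 and 1774 in necdin null and 2171 and 1804 in wild type cells (-0.10). The sign of the Gapdh difference therefore varied between its 3 probe sets, and the groups overlapped on each. The ratio of the 3′ to the 5′ signal, a sign of RNA quality, was 11.0 and 15.8 in necdin null and 9.96 and 11.7 in wild type cells. The 3′ signal was thus many times the 5′ signal on every array. The ratio was highest on necdin null replicate 2, the array that alone stood high for the 3′ set and for Tkt. Its bearing on the other members was not tested. Without necdin null replicate 2 the 3′ difference was -0.025, and without necdin null replicate 1 it was 0.39.

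**Figure D2:**
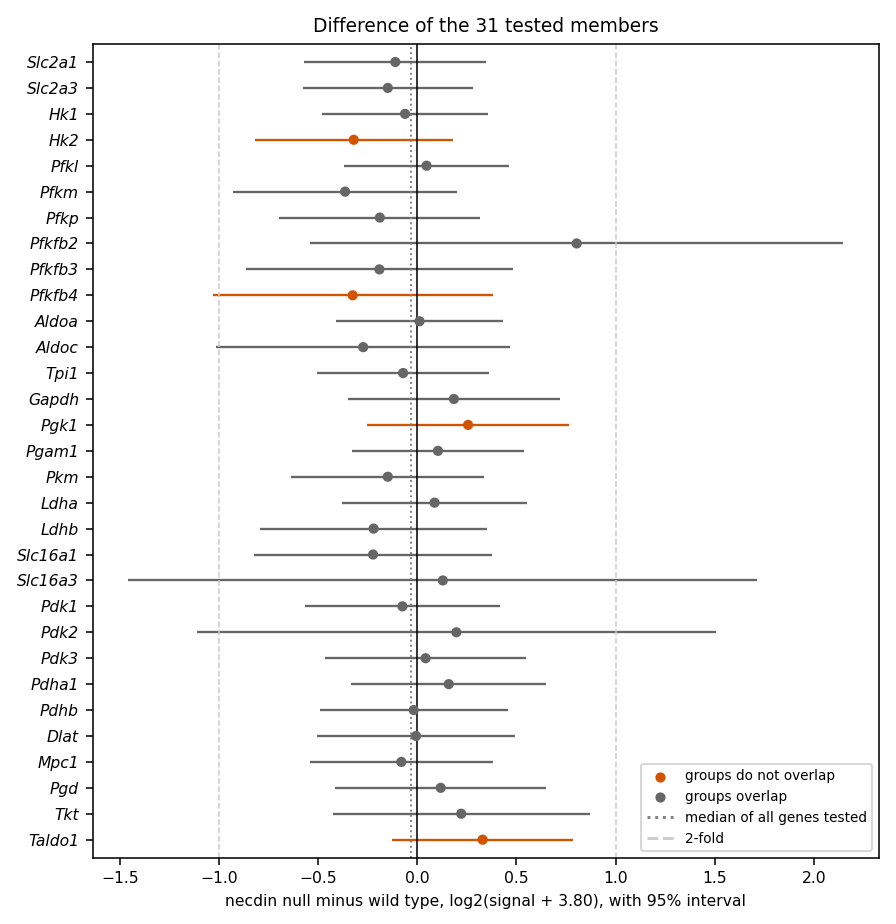
Difference between necdin null and wild type cells (log2 scale) for the 31 tested genes, with limma's 95% interval from 2 arrays in each group; orange marks genes whose groups do not overlap. Every interval crosses 0, and 26 of 31 lie within a 2-fold change in either direction.

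Lactate dehydrogenase is built from A and B subunits, of which A favours lactate formation and B favours its oxidation. Ldha gave 13952 and 16419 in necdin null and 14346 and 14159 in wild type cells, at the 98.7 to 98.8 percentile of the 45101 probe sets on each array. Ldhb gave 1872 and 1199 in necdin null and 1938 and 1574 in wild type cells, at the 87.4 to 90.9 percentile. Probe sets bind their targets with different strength, so these positions place each signal on the array and give no ratio of A to B transcripts. The difference of Ldha was 0.087 (standard error 0.21, 95% interval -0.38 to 0.55) and that of Ldhb was -0.22. Ldhb was lowest on necdin null replicate 2 with its main probe set, and 3 of its 4 probe sets had lower means in necdin null cells.

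Monocarboxylate carriers export lactate. Slc16a1, which encodes MCT1, gave 4039 and 2761 in necdin null and 4818 and 3156 in wild type cells, with both replicate 1 arrays above both replicate 2 arrays and a difference of -0.22. Slc16a3, which encodes the export carrier MCT4 of highly glycolytic cells, gave only 37.6 and 40.7 in necdin null and 20.8 and 58.9 in wild type cells, close to the filter. Bsg, the chaperone of both carriers, gave 1146 and 892 in necdin null and 1125 and 1063 in wild type cells.

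Among the kinases that switch off pyruvate dehydrogenase, Pdk1 and Pdk3 were bright and the others were not. Pdk1, known from hypoxic cells and stem cells, gave 10389 and 7522 in necdin null and 9585 and 9049 in wild type cells, at the 97.3 to 98.3 percentile. Pdk3 gave 2369 and 1817 in necdin null and 2295 and 1771 in wild type cells, at the 90.3 to 92.4 percentile. Pdk2 gave 48.1 and 90.7 in necdin null and 63.7 and 51.5 in wild type cells, at the 45.4 to 56.4 percentile, and the fasting-induced Pdk4 gave 26.3 and 26.5 in necdin null and 39.3 and 25.9 in wild type cells, below the filter. The difference was -0.075 (standard error 0.22, 95% interval -0.57 to 0.42) for Pdk1 and 0.042 for Pdk3. Pdk1 was the lowest on necdin null replicate 2 and the highest on necdin null replicate 1, so its 2 necdin null arrays enclosed both wild type arrays. Of its 4 probe sets 3 had lower means in necdin null cells.

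The mitochondrial side of the pathway was measured through 1 carrier subunit and 3 subunits of the pyruvate dehydrogenase complex. Mpc1, a subunit of the mitochondrial pyruvate carrier, gave 3505 and 2620 in necdin null and 3263 and 3148 in wild type cells (-0.081). Pdha1 and Pdhb encode the subunits of the first enzyme of the complex. Pdha1 gave 4377 and 6215 in necdin null and 4896 and 4459.5 in wild type cells (0.16), with necdin null replicate 2 the highest. Pdhb, the brightest of the set, gave 5229.7 and 6963 in necdin null and 5767 and 6475 in wild type cells and -0.018 (standard error 0.21, 95% interval -0.49 to 0.45). Dlat, the acetyltransferase core, gave 805 and 882 in necdin null and 848 and 845 in wild type cells, a difference of -0.0067 with wild type arrays that nearly coincided. A dimmer Dlat probe set gave 713 and 653 in necdin null and 873 and 911 in wild type cells, with the groups apart.

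The pentose phosphate genes were very bright, and all 3 had higher means in necdin null cells. Taldo1, transaldolase, gave 11371 and 13316 in necdin null and 10329.9 and 9286 in wild type cells, so the groups were apart. Its mean was 12344 ± 1375 against 9808 ± 738 (SD, n = 2 each), its difference 0.33 (standard error 0.20, 95% interval -0.13 to 0.79) and its limma adjusted p 0.999. Taldo1 was higher in necdin null cells under each of the 16 alternatives that gave it a value. These reuse the same 4 arrays and its only probe set, 1 in all, so they are not separate evidence. Tkt, transketolase, gave 31390.2 and 50179.6 in necdin null and 33290.2 and 34807 in wild type cells, where necdin null replicate 2 alone stood above the other 3 arrays. Its difference of 0.22 (standard error 0.28, 95% interval -0.43 to 0.87) was -0.12 without that array and 0.56 without the other necdin null array. A dimmer Tkt probe set gave 10744 and 9245 in necdin null and 9778 and 8015 in wild type cells. Pgd, which yields NADPH, gave 11896 and 16407 in necdin null and 11685 and 14185 in wild type cells (0.12), and 2 of its 4 probe sets had lower means in necdin null cells.

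Very bright signals were mostly higher in necdin null cells, among the members and among all genes. Of the 8 members (Tpi1, Gapdh, Pgk1, Ldha, Pdk1, Pgd, Tkt and Taldo1) with a mean log2 signal of at least 13 (a signal of 8188, a level chosen after seeing the values), all but Tpi1 and Pdk1 were higher in necdin null cells, 6 of 8, with a median difference of 0.15. Over all genes of that brightness 532 of 609 were higher (87.4%), also with a median of 0.15. Of the 23 dimmer members 8 were higher, with a median of -0.081. After quantile normalization 2 of the 8 bright members and 303 of the 609 bright genes were higher, and Tkt, Gapdh and Ldha stood at -0.043, -0.0091 and -0.048. Taldo1 and Pgk1 remained positive there, at 0.22 and 0.092. The share of bright members that were higher was thus not above that of all bright genes.

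**Figure D3:**
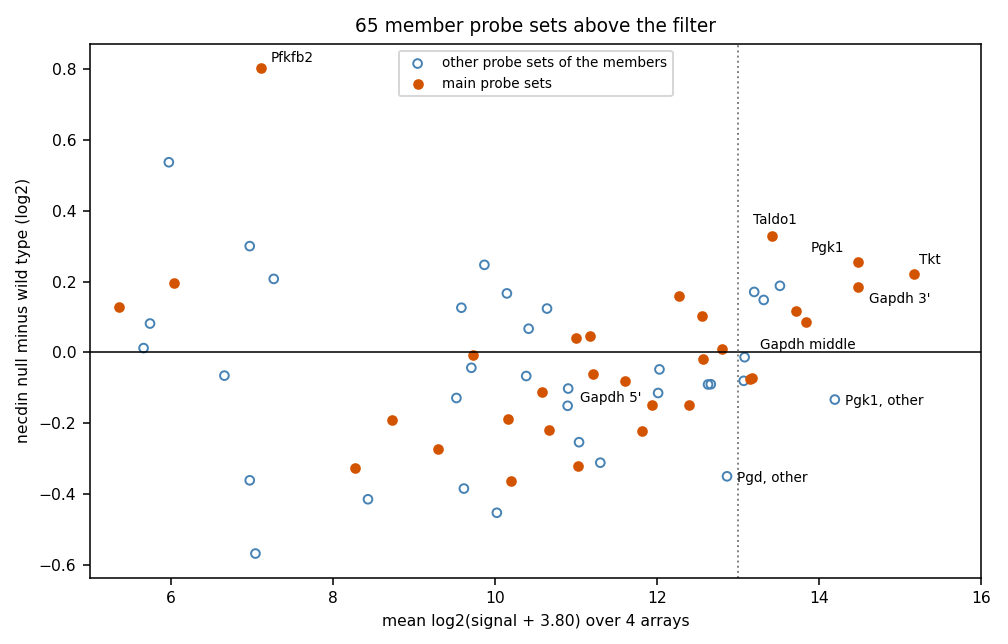
Difference between necdin null and wild type cells (log2) against the mean log2 signal for the 65 member probe sets above the filter, with main probe sets filled and the others open; the dotted line marks a mean log2 signal of 13. Most main probe sets right of the line lie above 0, while Gapdh runs from 0.18 at its 3′ set to -0.10 at its 5′ set.

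Of the 18 members with more than 1 probe set above the filter, 8 had probe sets in both directions: Pfkp, Pfkfb3, Aldoa, Gapdh, Pgk1, Ldhb, Pdk1 and Pgd. The summed signal of neutrophil and granule markers was highest on the same array as Tkt and Pgd, although Mmp8, Mmp9 and Fcnb were highest on wild type replicate 2. The 15 markers of that list had a summed signal of 103110.1 and 212653 in necdin null and 79051 and 148668 in wild type cells, with both replicate 2 arrays above both replicate 1 arrays. Of these markers 14 of 15 had higher means in necdin null cells, with a median difference of 0.41, and none lay below the filter. Over all genes tested 5824 of 12680 were higher, and 532 of 609 of the very bright ones. The groups were apart for 3 of the 15 markers, all higher, where 12.8% of all genes lay so. From wild type replicate 1 to replicate 2, Pgd was higher (11685 and 14185), Tkt changed little (33290 and 34807) and Taldo1 was lower (10330 and 9286). The summed monocyte and macrophage signals also had both replicate 2 arrays above both replicate 1 arrays. The part of neutrophil or monocyte markers in the pentose phosphate values was not tested. Markers of erythroid cells, which also depend on glycolysis, had summed signals of 21553 and 25530.4 against 24800.4 and 19301, which overlapped, and Hba-a1 lay below the filter.

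The balance between isoenzymes on an array cancels a scaling factor common to that array. It does not cancel a shift that depends on brightness where the partners differ in brightness. It was taken as the log2 signal of 1 gene minus that of its partner for 10 pairs, and only its change between groups was read. The groups were apart for 3 of 10 pairs, all with a higher ratio in necdin null cells, and Pfkl is part of both phosphofructokinase pairs. Among single genes 12.8% lay apart higher and 17.7% lower. The share over ratios of other gene pairs was not computed, so nothing is read from the count. Pfkl against Pfkm had 1.01 and 1.36 in necdin null and 0.61 and 0.94 in wild type cells, a difference of 0.41. Pfkl against Pfkp had 1.08 and 1.17 in necdin null and 0.77 and 1.01 in wild type cells (0.24), and Hk1 against Hk2 had 0.50 and 0.13 in necdin null and 0.053 and 0.064 in wild type cells (0.26). The SDs within groups were 0.24 for Pfkl against Pfkm and 0.13 for Pfkl against Pfkp. The exact permutation test (two-sided) gave p = 0.333 for these 3 pairs, the smallest that 2 against 2 arrays allow, and 0.952 after Benjamini-Hochberg adjustment over the 10 pairs. With the mean of all probe sets in place of the main one, Pfkl against Pfkp turned to -0.42. Ldha against Ldhb differed by 0.31, with 2.90 and 3.77 in necdin null and 2.89 and 3.17 in wild type cells, which overlapped.

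**Figure D4:**
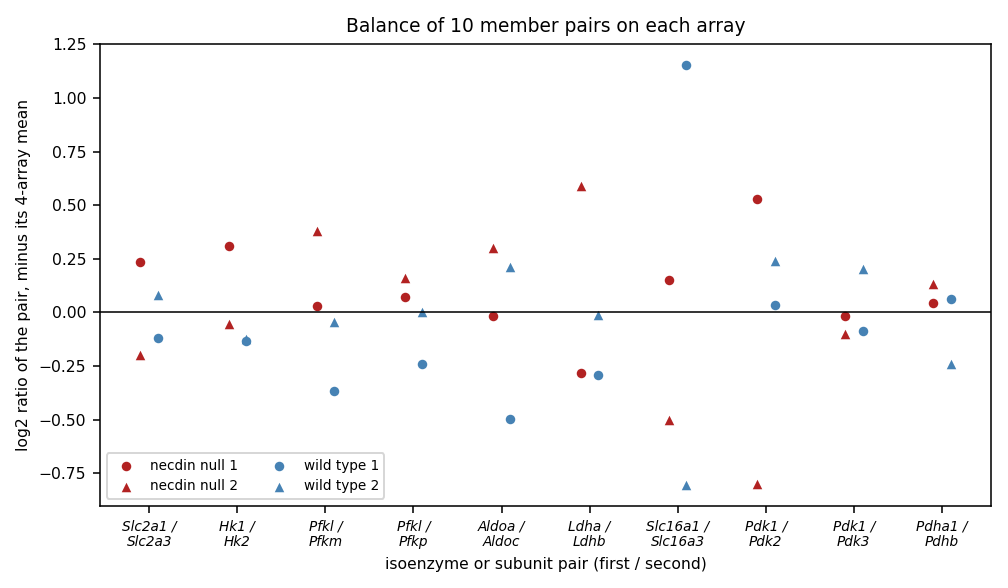
Log2 ratio of 10 member pairs on each array, shown as its distance from the mean of the 4 arrays, for necdin null (red) and wild type (blue) replicates 1 (circles) and 2 (triangles). Red and blue separate for Hk1 against Hk2 and for Pfkl against Pfkm and Pfkp, and overlap for the other 7 pairs.

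Beyond the 38, 70 further genes of sugar metabolism and its control were read, of which 67 were named on the array and 56 passed the filter. None passed the test, 27 were higher and 29 lower, and their median was -0.020. At an unadjusted p under 0.05 there were 3 of 56 (3.02% of all genes), and the groups were apart for 6 higher and 11 lower genes (12.8% and 17.7% of all genes), the latter near the background. The 4 genes described next with Hif1a were the 2 of smallest p in each direction among those with groups apart. Arnt, which encodes the common partner of the hypoxia-inducible factors, gave 632 and 495 in necdin null and 1148 and 1028 in wild type cells, a difference of -0.95 (standard error 0.24, 95% interval -1.50 to -0.41) with a limma adjusted p of 0.999. A further Arnt probe set gave 219 and 75.9 in necdin null and 268 and 239 in wild type cells, while the other 2 above the filter overlapped. Hif1a, which encodes the oxygen-regulated partner, gave 3212 and 3235 in necdin null and 2926 and 2786 in wild type cells (0.17).

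Eno3, the muscle enolase, gave 290 and 252 in necdin null and 437 and 473 in wild type cells (-0.74, standard error 0.30). Gpd2, the mitochondrial arm of the glycerol phosphate shuttle, was higher, at 2767 and 3181 in necdin null and 1631 and 2194 in wild type cells (0.65, standard error 0.21), but its other 2 probe sets above the filter overlapped. Dera, which feeds deoxyribose phosphate into glycolysis, gave 2479 and 2238 in necdin null and 2122 and 1906 in wild type cells (0.23, standard error 0.19). Among further pentose phosphate genes the median difference was 0.11, with 7 of 9 higher, and among regulators of glycolysis it was -0.13, with 6 of 9 lower. Over all genes tested it was -0.031, with 5824 of 12680 higher and 6856 lower. The groups were apart for 1 of the 9 pentose phosphate genes (higher) and 4 of the 9 regulators (1 higher, 3 lower). Of all genes 12.8% lay apart higher and 17.7% lower.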

How the data were processed

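MAS5 signals were made by the authors (submitters' processing notes name the tool, without a version). As deposited, intensity values are linear, and each array averages 500.004 once the 2% of probe sets at either end are set aside. Detection calls were not used here. The platform annotation gives 1 symbol to 34958 of 45101 probe sets, and only these were named. Signals were analysed as log2(signal + 3.80), which understates differences of low genes; 3.80 is the 10th percentile over the signals. A gene was tested if its brightest probe set (by mean log2) reached the 40th percentile, a signal of 30.3. The 2 groups of 2 arrays were compared with limma 3.58.1 (R 4.3.3; lmFit, then eBayes with trend), and p-values were adjusted over all 12680 genes by Benjamini-Hochberg, at 0.05. The code was tested on simulated data. Members and lists were chosen with earlier results of these data known. Every member was named; of the other pathway genes, the 2 of smallest p in each direction with groups apart, and after their values were seen Hif1a, Hk3 and Bsg. The number of arrays limits precision. Alternatives changed the pseudocount, filter, normalization, variance model, probe sets or design, or left out 1 array.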

Additional observations from a re-analysis of the deposited data

How the results depend on the processing

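The members called stayed at 0 of 31 under all 17 alternatives, as did the other pathway genes called. Quantile normalization with the replicate block was chosen after seeing the data. Over all genes the count called, 0, was 3 with the replicate block (Tcl1b3, Ddit4 and Gas2l3), 0 with quantile normalization and the block, and 0 to 4 when leaving out 1 array (Ddit4, Xist and 2610316D01Rik without necdin null replicate 1, Ighg3 and Frmd4b without wild type replicate 1, Eif2s3y, Tcl1b3, Dhx36 and Kdm5d without wild type replicate 2). Same-numbered arrays correlated at 0.11 in their deviations from group means, with only 2 pairs, so the numbers were not taken as pairing; with the replicate block the smallest adjusted p of a member was 0.90, and no member's call changed. Members with an unadjusted p under 0.05 were 0 to 3 when leaving out 1 array: Taldo1, Tkt and Gapdh without necdin null replicate 1, and Pfkfb2 without wild type replicate 2. The median of the members, -0.018, was -0.062 without filter, with the 60th percentile filter and with each probe set on its own, 0.023 with the mean of all probe sets and -0.099 with median centring, where the median of all genes was -0.11. Members with groups apart were 2 higher and 2 lower in the main analysis. They were 1 and 4 with median centring (7.42% and 23.2% of all genes) and 1 and 4 with cyclic loess (13.2% and 17.2%). With the mean of all probe sets they were 4 and 5 (14.6% and 17.0%). Of 65 probe sets taken singly, 5 and 8 lay apart (14.3% and 16.9%). With quantile normalization, with or without the block, 4 members were lower (17.8%). Without _s_at, _x_at and _a_at probe sets, 1 of the 20 members left was higher (12.95%). The counts in the other direction are not given for these last choices. Leaving out 1 array gave 4 to 11 higher and 5 to 13 lower, since 1 array more easily lies apart from 2 (27.6% to 30.1% of all genes higher and 32.2% to 38.6% lower). Of 514 recomputed member differences 58 changed sign, in 24 of 31 members; 7 members (Slc2a3, Hk2, Pfkm, Pfkfb4, Tpi1, Pgk1 and Taldo1) did not, although 1 further Pgk1 probe set was at -0.13. Changes of sign beyond the replicate spread were Pfkl at -0.034 with median centring, Ldha at -0.048 and Dlat at 0.059 with quantile normalization with or without the block, Pfkp at 0.56, Pfkfb3 at 0.17, Aldoc at 0.30 and Slc16a1 at 0.34 with the mean of all probe sets, which takes in dim ones, and, on the further probe set of smallest p, Pfkp at 0.082, Pfkfb3 at 0.54, Aldoa at -0.15, Gapdh at -0.10, Pdk1 at 0.25 and Pgd at -0.25. With the mean of all probe sets the balance of Pfkl against Pfkp was -0.42 and that of Aldoa against Aldoc -0.34. The causes were not tested. Signals near the filter limit Pfkfb2, Slc16a3 and Pdk2.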
